A study of Mus musculus with 6 samples.

Results

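Blood clotting and clot removal genes were read in RNA from Lewis lung carcinoma (LLC) tumors of the mouse. The study describes the material as sorted macrophages, whereas the labels name tumor tissue. The 9 genes are Thbd, F3, F5, F7, F10, F13a1, Plau, Plaur and Serpinb2, taken by symbol from the 22377 genes of the count table, and each of the 9 passed the filter on low counts that left 13884 genes. The genes were put together with the difference between the wt and ko libraries already known, so their differences between these groups are given as a description with a standard error and with no test. Thrombomodulin (Thbd) was about 0.508 of its wt level in the ko libraries and the A subunit of factor XIII (F13a1) about 0.628. Both were below wt in each ko library, as were 12.6% of all genes tested. Urokinase (Plau) stood at 1.36 times its wt level and was above wt in each ko library, as were 13.3%. Scaling to macrophage markers moved the log2 fold change of F13a1 from -0.67 to -0.20 (standard error 0.14). F5 (0.669 of its wt level), F7 (0.798), F10 (0.807) and Plaur (0.838) were lower in mean with overlapping values. F3 was higher in mean (1.27 times wt), also with overlapping values, and Serpinb2 had nearly the same mean in both groups.
The data comprise 6 libraries, 3 titled wt and 3 titled ko, and the labels describe the latter as a knockdown. The study sequenced CD45+ CD11b+ F4/80+ macrophages sorted from subcutaneous LLC tumors of Npm1+/+ mice and of Npm1+/- mice, which carry 1 intact copy of the gene for nucleophosmin in each cell of the host, whereas the implanted LLC cells were not of that genotype. The labels give neither genotype, age nor sex for a library and name tumor tissue as the material, with RNA extracted by TRIzol and a library enriched for small RNA, whereas the study's methods describe column-purified RNA of sorted cells and a low-input cDNA kit. Which protocol the counts came from was not settled here. The libraries are therefore called wt and ko after their titles.

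Clotting starts when tissue factor (F3), a membrane receptor, binds factor VII (F7). This complex activates factor X (F10), which cuts prothrombin to thrombin with factor V (F5) as its cofactor, and factor XIII then cross-links the fibrin that thrombin makes. Thrombomodulin on the cell surface binds thrombin and turns it toward activation of protein C, which stops the cascade. Urokinase converts plasminogen to plasmin, which dissolves fibrin, while its receptor (Plaur) holds it on the cell surface and Serpinb2, also named plasminogen activator inhibitor type 2, inhibits it. Liver is the main source of plasma factors V, VII and X and endothelium the best known site of thrombomodulin, and macrophages are known to make several of these proteins as well.

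Promoters of 7 of the 9 genes were at hand from RefSeq (GRCm38.p6). In the window from 250 bases before to 50 bases after the start, the AP-1 motif TGANTCA, searched like the other motifs on both strands and overlapping none of them in these genes, was found for 3 of the 7 genes (F3, Plaur and Serpinb2) and in 7.81% of all 32851 promoters. The STAT motif TTCNNNGAA was found for 1 gene, Serpinb2, and in 8.3% of all promoters. The core of the hypoxia response element, GCGTG, was found for 0 of the 7 and in 32.39% of all promoters. The GC box GGGCGG was found for 3 (F3, F5 and Plaur), against 35.66% of all promoters, and TATAAA for 2 (F3 and Serpinb2), against 13.62%. The 250 bases before the start are shown for the 3 genes with an AP-1 match, because 2 of them, F3 and Serpinb2, shared the low level in wt replicate 1 described below. Plaur was instead highest in that library, and F5, with no AP-1 match, was there at 0.641 of the mean of the other wt libraries. A link between the motif and these levels was not tested. Capitals mark the AP-1, GC box and TATAAA matches, and in Plaur 3 GC boxes follow each other directly, of which the last 2 share a base.
F3, chr3:121723287-121723536, plus strand: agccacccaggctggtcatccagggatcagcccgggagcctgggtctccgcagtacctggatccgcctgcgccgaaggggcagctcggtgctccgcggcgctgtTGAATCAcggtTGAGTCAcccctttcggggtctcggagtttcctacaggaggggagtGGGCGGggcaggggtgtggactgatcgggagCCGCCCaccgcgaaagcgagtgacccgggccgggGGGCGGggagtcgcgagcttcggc
Plaur, chr7:24462233-24462482, plus strand: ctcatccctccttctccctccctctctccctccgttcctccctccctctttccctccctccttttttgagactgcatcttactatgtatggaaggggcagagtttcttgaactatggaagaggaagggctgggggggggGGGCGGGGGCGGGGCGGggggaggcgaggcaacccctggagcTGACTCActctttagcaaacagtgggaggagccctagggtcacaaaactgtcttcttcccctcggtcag
Serpinb2, chr1:107511173-107511422, plus strand: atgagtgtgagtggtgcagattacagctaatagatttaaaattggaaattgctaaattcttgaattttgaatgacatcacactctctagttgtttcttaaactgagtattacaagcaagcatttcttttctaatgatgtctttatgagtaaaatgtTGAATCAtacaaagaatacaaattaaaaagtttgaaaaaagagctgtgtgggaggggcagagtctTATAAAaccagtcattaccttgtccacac
F7 and F10, which encode related vitamin K-dependent proteases, are neighbors on the plus strand of chromosome 8 (GRCm38, GENCODE). F7 spans 13026034 to 13035809 and F10 spans 13037308 to 13056676, with 1498 bp between them. Thbd (chromosome 2, 148404466 to 148408188, minus strand) has a single exon and overlaps no other annotated gene. F5 and F13a1 overlap 2 noncoding genes or pseudogenes each, and Serpinb2 overlaps Serpinb10, a gene of the same family. Reads could have been divided or shared there, since use of strand in counting is not given in the sources used here.

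Total counts lay between 36550775 and 38147320 per library, and the lowest count of any of the 9 genes in any library was 689, so depth did not limit their values. The libraries differed in more than the labels. Wt replicate 1 lay at -108 on the first principal component, which held 67.99% of the variance, and the other 5 lay between -4.54 and 52.03, so results are also given without it. Npm1, the targeted gene, was at 142, 380.2 and 381 CPM in the wt libraries and at 441, 499 and 343 in the ko libraries. CPM is the count relative to the library size, here scaled by the TMM method. Npm1 had a log2 fold change of 0.51 (standard error 0.36, adjusted p = 0.436, edgeR's quasi-likelihood test), so its RNA gave no lower level under the label ko. Over all genes tested, 0 of 13884 (0%) had an adjusted p-value under 0.05 in edgeR, with 2112 at an unadjusted p-value under 0.05, and DESeq2 called 36. Chi-square values of at least 31.1 per gene showed that no 2 libraries of a group were 1 library deposited again. The labels number the libraries as biosamples, and a figure caption of the study gives fewer mice per group than there are libraries, so libraries may share a mouse and p-values and SDs may reflect technical spread in part.

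The sorting markers Ptprc, Itgam and Adgre1 were present in each library, at 127 CPM or more. All 12 genes of the macrophage marker list had a lower estimate in the ko libraries. Their summed level was between 16505 and 22019 CPM in wt and between 9852 and 16339 in ko, without overlap. Most of it was Lyz2, whose groups overlapped (9354 to 14144 CPM in wt, 5667 to 9698 in ko). Ptprc, Adgre1 and Mertk also overlapped, and the other markers of the list were below wt in each ko library, as were 12.6% of all genes tested. All 8 monocyte markers were also lower, with sums of 9633 to 12329 and of 5124 to 9277. In the opposite direction, all 10 fibroblast markers had a higher estimate in ko, although that of Postn was only 0.05 (standard error 0.72). Their sum was 35.1 CPM in wt replicate 1, 327 to 528 in the other wt libraries and 398 to 771 in ko. Most of this sum was Col3a1, at 19.0 CPM in wt replicate 1 and 245 to 604 in the other libraries. Col1a1, Col1a2 and Postn were not lowest in wt replicate 1. In such bulk samples, fewer cells of a type and less RNA per cell cannot be told apart.

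Compared per length of transcript (FPKM), the 9 genes spanned a wide range of levels. Plaur was first with a mean of 618 ± 80.2 FPKM (SD over 6 libraries), above 99.1% of all genes tested. F10 followed at 219 ± 30.4 and F13a1 at 162 ± 38.1, and the ranges of these last 2 overlapped. Below them lay a gap that no library crossed. Serpinb2 (43.9 ± 14.7), Plau (35.6 ± 11.1), Thbd (26.4 ± 9.08), F3 (21.5 ± 6.75), F7 (17.04 ± 2.16) and F5 (12.5 ± 3.47) formed a continuous series in which each neighboring pair had overlapping ranges. The receptor of urokinase was therefore more abundant than urokinase in each library, and factor X more abundant than its partners factor V and factor VII. Prothrombin, factor XI and the B subunit of factor XIII were at or near the limit of detection, and factors VIII, IX and XII were low, as given for the wider lists below. Proz of those lists passed the filter on low counts, at 0.629 to 2.63 CPM.

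**Figure D1:**
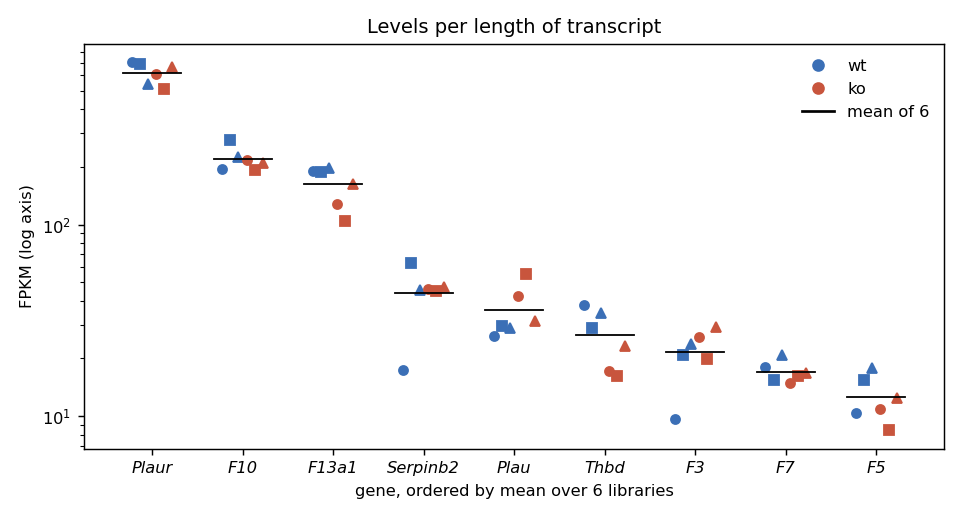
FPKM of the 9 genes (vertical log axis) ordered by their mean over 6 libraries, with 1 point per library (blue, wt; red, ko; circle, square and triangle, replicates 1, 2 and 3) and a black line at the mean of 6. Plaur lies highest at a mean of 618 FPKM, F10 and F13a1 follow with overlapping ranges, and F5 is lowest at 12.5.

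Tissue factor and factor VII, which start the cascade, had overlapping groups, with a higher mean of F3 and a lower mean of F7 in ko. F3 was at 19.4, 41.97 and 45.3 CPM in wt replicates 1, 2 and 3 and at 46.1, 32.6 and 56.6 in ko replicates 1, 2 and 3. Wt replicate 1 was far below the other 5 libraries, and those 5 were mixed between the groups. The log2 fold change was 0.34 (standard error 0.34) with all 6 libraries and 0.04 (standard error 0.22) without wt replicate 1. With TMM scaling the higher mean in ko therefore rested on that library. The same library had the lowest fibroblast sum, most of it Col3a1. Of the epithelial markers tested, Krt8 was also lowest there (9.90 CPM against 59.1 to 171 in the other 5), as was Krt18. Cdh1 (24.3 CPM) and Krt7 (0.928 CPM) were instead highest in that library. The part of fibroblasts and epithelial cells in the level of F3 was not tested. F7 was at 35.7, 30.7 and 39.1 CPM in wt and at 26.1, 26.0 and 32.1 in ko. Ko replicate 3 lay above wt replicate 2, so the groups overlapped, with a log2 fold change of -0.33 (standard error 0.15).

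Factor X and its cofactor factor V were both lower on average in ko, and F5 by more. F10 was at 563, 795 and 614 CPM in wt and at 559, 450.3 and 582 in ko, where the highest ko library exceeded the lowest wt library. Its log2 fold change was -0.31 (standard error 0.18). F5 was at 90.2, 134 and 147 CPM in wt and at 84.2, 59.8 and 104 in ko. Here wt replicates 2 and 3 were above each ko library, whereas wt replicate 1 was below ko replicate 3. The log2 fold change of F5 was -0.58 (standard error 0.25) with all libraries and -0.77 (standard error 0.21) without wt replicate 1. Its deviating value in that library was 0.641 of the mean of the other wt libraries.

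Thbd had the largest difference of the 9 genes. It was at 152, 115 and 131 CPM in wt and at 60.9, 52.4 and 89.2 in ko, so that each ko library was below each wt library. Thbd averaged 133 ± 18.5 CPM in wt and 67.5 ± 19.3 CPM in ko (SD, n = 3 each), a log2 fold change of -0.98 (standard error 0.21). Without wt replicate 1 it was -0.87 (standard error 0.22). Of the endothelial markers, Pecam1 was the most abundant and was also lower in each ko library, at 31.7, 29.2 and 25.5 CPM in wt and at 21.6, 23.7 and 24.04 in ko (log2 fold change -0.32, standard error 0.14), and its part, or that of its source, in the level of Thbd was not tested. Kdr had a log2 fold change of -0.35 (standard error 0.35). Cdh5 was at most 4.26 CPM and Cldn5 at most 0.483 in each library, and 7 of the 9 tested had a higher estimate in ko.
F13a1, the enzyme that cross-links fibrin, had the tightest wt values of the group, at 995, 984 and 981 CPM. In ko it was at 595, 443 and 822, all below wt and with a far wider spread. F13a1 averaged 987 ± 7.31 CPM in wt and 619.9 ± 190.5 CPM in ko (SD, n = 3 each), a log2 fold change of -0.67 (standard error 0.22). Platelets also carry F13a1, and the platelet transcripts Pf4 and Ppbp were present at 146 to 216 and 143 to 246 CPM with overlapping groups, while Gp9 and Gp1ba were at or under 0.102 CPM in each library.

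The plasminogen genes went in different directions. Plau was at 70.5, 79.3 and 73.6 CPM in wt and at 102, 121 and 81.4 in ko, each ko library above each wt library, although ko replicate 3 exceeded wt replicate 2 by little. The log2 fold change was 0.44 (standard error 0.16), and 0.40 (standard error 0.17) without wt replicate 1. Its receptor Plaur was at 1174, 1149 and 856 CPM in wt and at 906, 691 and 1066 in ko. Those values were intermixed, with a log2 fold change of -0.26 (standard error 0.20). Serpinb2 was at 38.2, 138 and 94.4 CPM in wt and at 89.4, 80.2 and 99.6 in ko. The 3 ko libraries agreed within 1.24-fold, whereas the wt libraries spanned 3.62-fold, with wt replicate 1 lowest. The log2 fold change was -0.01 (standard error 0.40), and without wt replicate 1 it was -0.38 (standard error 0.18).

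**Figure D2:**
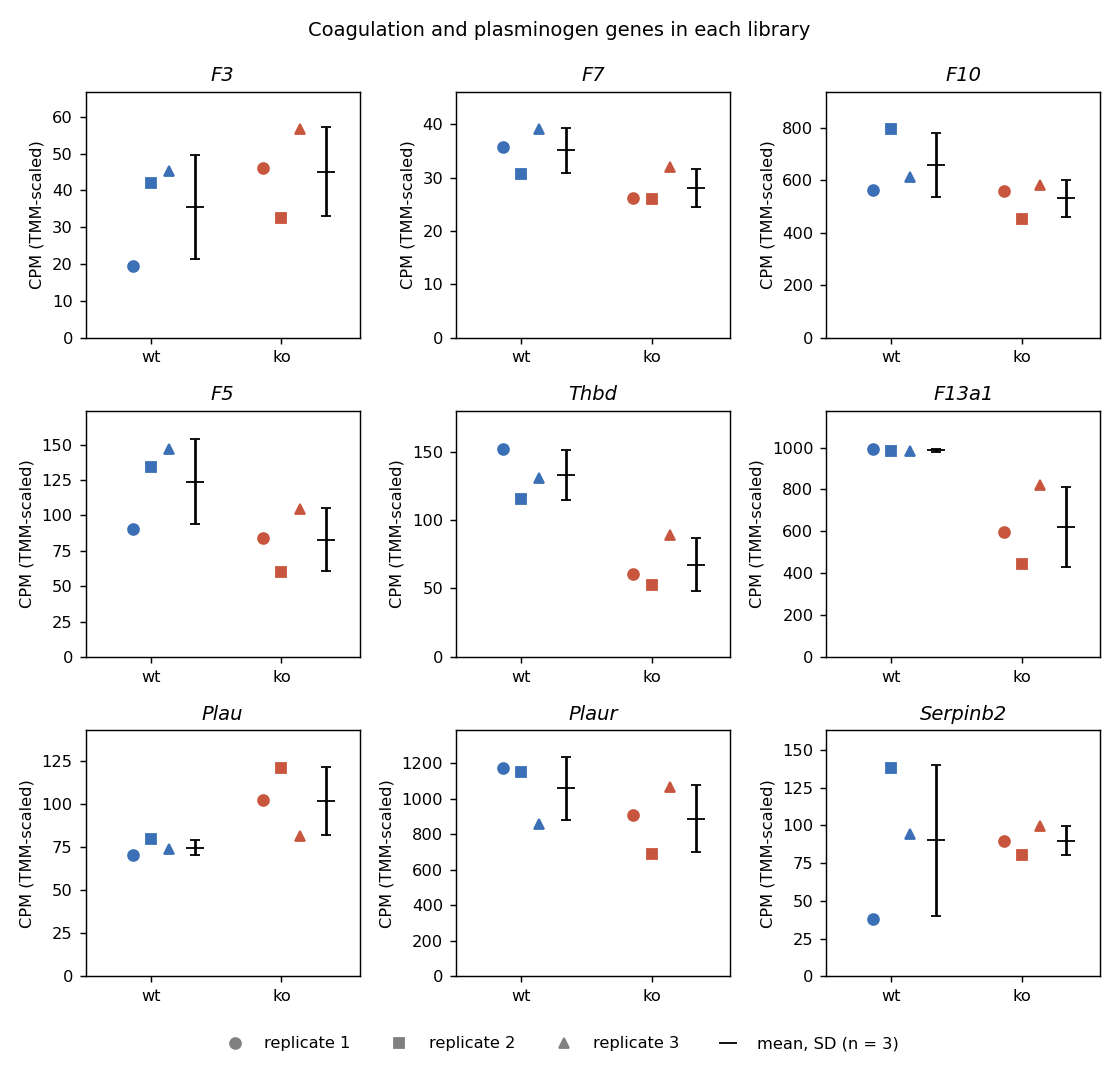
TMM-scaled CPM of each gene in the wt (blue) and ko (red) libraries, with replicates 1, 2 and 3 as circle, square and triangle and the mean with its SD (n = 3) in black; each vertical axis starts at 0 and has its own scale. The ko points of Thbd (52.4 to 89.2) and F13a1 (443 to 822) lie below all wt points, those of Plau (81.4 to 121) lie above them, and F3 and Serpinb2 are lowest in wt replicate 1.

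Across the group, 7 genes had a lower and 2 a higher estimate in ko, with a median log2 fold change of -0.31 beside 0.02 over all genes tested. The groups did not overlap for 3 genes. Thbd and F13a1 were lower in each ko library, as were 12.6% of all genes tested, and Plau was higher in each, as were 13.3%. Because these genes were chosen on this contrast, nothing is read from the counts.
The ko libraries kept 1 order in most of the group. In TMM-scaled CPM, 8 of the 9 genes, all but Plau, were highest in ko replicate 3, intermediate in ko replicate 1 and lowest in ko replicate 2. All 12 macrophage markers had this order too, as did 29.1% of all genes tested. For F7, ko replicates 1 and 2 were nearly equal (26.1 and 26.0 CPM). In FPKM the order was not kept by F7 (14.9 and 16.1 in ko replicates 1 and 2) or F10 (218 and 209 in ko replicates 1 and 3). Among the markers, Ptprc did not keep it either (179 and 181 FPKM in ko replicates 1 and 2). The order was noticed after the values were seen.

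For this reason the libraries were also scaled to the geometric mean of the 12 macrophage markers, a setting added after the data were examined, which moved the median log2 fold change of all genes to 0.57. Thbd then was at 119, 99.3 and 113 scaled CPM in wt and at 73.5, 79.3 and 83.8 in ko, still without overlap, with a log2 fold change of -0.49 (standard error 0.17). F13a1 was at 779.6, 846 and 849 in wt and at 719, 669.8 and 772 in ko, also without overlap, with a log2 fold change of -0.20 (standard error 0.14). F3 was at 15.2, 36.1 and 39.2 in wt and at 55.7, 49.3 and 53.2 in ko. F3, Plau and Plaur were above wt in each ko library. Under this scaling 0.641% of all genes tested were below wt in each ko library and 38.4% above, and as with the other counts nothing is read from these shares. The spread among the ko libraries, as the highest over the lowest, went from 1.70 to 1.14 for Thbd, from 1.85 to 1.15 for F13a1, from 1.74 to 1.13 for F5 and from 1.54 to 1.09 for Plaur. It also narrowed for F3 (1.74 to 1.13) and little for F10 (1.29 to 1.25), and it widened for Plau (1.48 to 2.39), F7 (1.24 to 1.30) and Serpinb2 (1.24 to 1.30). Among the wt libraries the spread narrowed for Thbd (1.32 to 1.20) and Plaur (1.37 to 1.33) and widened for the other 7 genes. The shared order prompted this scaling, so narrowing among the ko libraries in genes with that order partly restates it. The change of spread over all genes is not given here. F7 (0.19), F10 (0.20), Plaur (0.25) and Serpinb2 (0.49) changed sign to values that lie below the shift of all genes, while F3 (0.81) and Plau (1.03) lay above it. Relative to the macrophage markers Thbd was still lower in ko, whereas the direction of F7, F10 and Plaur turned with the scaling.

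**Figure D3:**
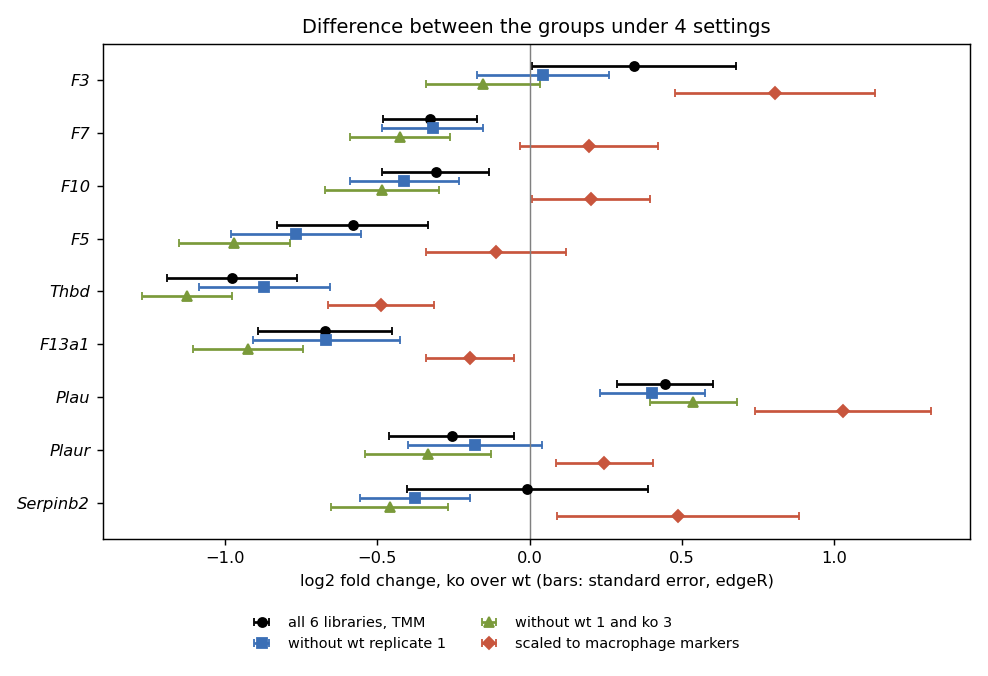
Log2 fold change of ko over wt (horizontal axis) for each gene, with the standard error of the edgeR fit as bars, for all 6 libraries with TMM scaling (black), without wt replicate 1 (blue), without wt replicate 1 and ko replicate 3 (green) and with scaling to the macrophage markers (red). Thbd lies below 0 in all 4, from -1.13 to -0.49, Plau lies above 0 in all 4, and F7, F10 and Plaur lie above 0 with the macrophage scaling and below 0 in the others.

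Ratios of 2 genes within a library do not depend on scaling. Thrombomodulin per tissue factor, both as FPKM, was 3.97, 1.39 and 1.46 in wt and 0.666, 0.811 and 0.795 in ko. Each ko library was below each wt library, and wt replicate 1, in which F3 was low, had the highest ratio. Both genes were chosen with this contrast known, and the share of other gene pairs without overlap is not given here. Urokinase per receptor was 0.0373, 0.0429 and 0.0534 in wt and 0.0698, 0.109 and 0.0474 in ko, where ko replicate 3 lay within the wt range. The neighbors F7 and F10 kept a ratio of 0.0807 ± 0.0210 (SD, n = 3) in wt and of 0.0776 ± 0.00835 (SD, n = 3) in ko, a difference smaller than the spread between replicates. Factor V per factor X was 0.0628 ± 0.0145 (SD, n = 3) in wt and 0.0511 ± 0.00776 (SD, n = 3) in ko with overlapping values.

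Of 47 other genes of these pathways, in 4 lists, 40 were in the table and 24 passed the filter on low counts. In edgeR's quasi-likelihood test over all genes, 0 of the 24 were called higher and 0 lower, with a smallest adjusted p of 0.328. An unadjusted p-value under 0.05 was found for 5 of the 24, beside 2112 of all 13884 genes tested, and nothing is read from the 5. DESeq2 on the 6 libraries also called 0. The estimates were higher for 11 and lower for 13, with a median log2 fold change of -0.05.
Among the coagulation factors and their processing genes, 9 of 16 were tested, with 3 higher and 6 lower estimates. Prothrombin (F2), factor XI and the B subunit of factor XIII had at most 1 count in any library, and factors VIII, IX and XII at most 16. The transglutaminases related to F13a1 were both lower in mean, Tgm1 at 39.5 ± 1.93 CPM in wt and 23.3 ± 6.97 in ko (SD, n = 3, log2 fold change -0.76, standard error 0.23) and Tgm2 at 1068 ± 124 and 823 ± 143 (SD, n = 3, log2 fold change -0.38, standard error 0.17). Lman1 and Mcfd2, which together carry factors V and VIII out of the endoplasmic reticulum, had log2 fold changes of 0.19 (standard error 0.11) and -0.23 (standard error 0.11). Vkorc1l1, a vitamin K reductase, stood at -0.10 (standard error 0.14).
Among the anticoagulant genes, 4 of 10 were tested. Tfpi, the inhibitor of the complex of tissue factor and factor VII, was at 2.47, 8.29 and 7.78 CPM in wt and at 18.9, 16.2 and 12.4 in ko. It had the largest log2 fold change of the 17 listed genes with a mean of at least 10 CPM, at 1.36 (standard error 0.43, adjusted p = 0.328), and did not pass. Its low value in wt replicate 1 went with the low fibroblast sum there, most of it Col3a1, and the part of fibroblasts was not tested. Protein S (Pros1), the cofactor of activated protein C, had a log2 fold change of -0.70 (standard error 0.24), and Entpd1, a surface enzyme that degrades ATP and ADP, of -0.43 (standard error 0.17). Procr, the receptor of protein C and partner of thrombomodulin, was at 12.98 ± 4.81 CPM in wt and 14.1 ± 2.12 in ko (SD, n = 3).
All 3 protease-activated receptors tested had a higher estimate in ko. F2r, the main thrombin receptor, was at 3.35, 28.6 and 21.6 CPM in wt and at 43.3, 45.4 and 25.8 in ko, with a log2 fold change of 1.10 (standard error 0.65, adjusted p = 0.378), and wt replicate 1 was again lowest.
In the plasminogen list 8 of 10 genes were tested. Lrp1, an endocytic receptor that clears complexes of proteases and inhibitors, was at 2121, 1757 and 1640.1 CPM in wt and at 1025, 906 and 1306 in ko. The ko libraries were all below the wt libraries, with a log2 fold change of -0.77 (standard error 0.19) and an adjusted p of 0.328 in edgeR. The activator Plat had a log2 fold change of 0.35 (standard error 0.41), smaller than its error. The plasminogen-binding proteins S100a10 (-0.01, standard error 0.17), Anxa2 (-0.21, standard error 0.17), Eno1 (-0.20, standard error 0.16) and Plgrkt (0.03, standard error 0.15) had overlapping groups.

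**Figure D4:**
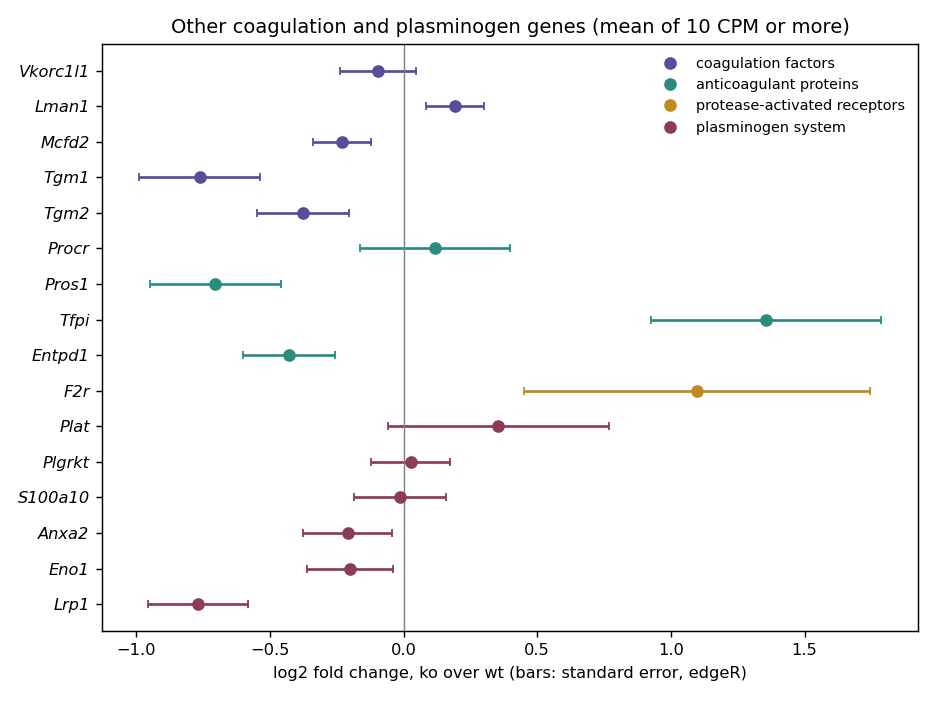
Log2 fold change of ko over wt (horizontal axis) with the standard error of the edgeR fit for 16 of the other coagulation and plasminogen genes with a mean of at least 10 CPM, colored by list. None of them passed an adjusted p-value of 0.05. Tfpi (1.36) and F2r (1.10) lie farthest to the right, and Lrp1 (-0.77), Tgm1 (-0.76) and Pros1 (-0.70) farthest to the left.

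Other sources of these transcripts were read from their markers. The 5 hepatocyte genes in the table together made at most 0.687 CPM in any library, although F10 stood at 450.3 CPM or more. The endothelial list summed to between 32.6 and 43.0 CPM, most of it Pecam1, with overlapping ranges in the groups. Large peritoneal macrophages are known to express F5 and F10, and their list summed to between 18.02 and 27.6 CPM in wt and between 17.3 and 19.1 in ko. In that list Gata6, the defining transcription factor, was at most 0.141 CPM, while Icam2 (5.83 to 10.4 CPM) and Selp (3.41 to 7.95 CPM) were present with overlapping groups and Garnl3 was higher in each ko library (3.36 to 5.55 CPM against 0.787 to 2.51). The neutrophil list was at 1888 to 2106 CPM in wt and 837 to 1609 in ko, and its 7 tested genes all had lower estimates. Its part, and that of monocytes, in the lower levels of Thbd and F13a1 was not tested.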

How the data were processed

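RNA of 6 libraries, 3 wt and 3 ko, was measured. The table that the authors deposited holds raw read counts beside FPKM. As checked from the values, each deposited FPKM is the count over a fixed gene length and the total of the library. Per the labels the genome build was mm10. The aligner, the counting tool and the annotation are not given in the sources used here. All measured columns were mapped to a library by title.

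Counts were fitted in edgeR 4.0.16 (R 4.3.3) with filterByExpr, TMM factors, glmQLFit and glmQLFTest, with Benjamini-Hochberg adjustment over 13884 genes. Total counts were between 36550775 and 38147320, at which 3 counts, the limit for a count of 0, equal 0.0716 to 0.0846 CPM (counting error only). The standard error of a fold change was derived from it and the F statistic of the fit. log2 CPM used a prior count of 2. DESeq2 1.42.0 and limma 3.58.1 on log2 of the deposited FPKM plus 1 or 0.1 were alternatives. The scripts were tested on simulated data. Named were the 9 genes, Npm1, listed genes with a mean of at least 10 CPM and, by the root mean square difference of gene-centered log2 CPM, the 3 genes most like each. The 9 genes and the lists were chosen with earlier results of these data known. Some results that these rules name are not reported here. Genes listed but absent from the table were not analysed here. Coordinates are from GENCODE M21 (GRCm38, the assembly of mm10), promoters from RefSeq (GRCm38.p6).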

Additional observations from a re-analysis of the deposited data

How the results depend on the processing

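edgeR called 0 genes over all 6 libraries, and 0 with RLE or upper quartile scaling, with either other filter, with limma, with each library left out, without wt replicate 1 and ko replicate 3 together and with scaling to the macrophage markers. DESeq2 called 36 genes over 6 libraries and 1283 of 21760 without wt replicate 1 and ko replicate 3. Among the 1283 were 8 of the 40 other pathway genes in the table (with Entpd1, F2r, Lrp1, Pros1, Tfpi, Tgm1 and Tgm2), against 0 in the fits named above. How many of the 40 had a p-value in that DESeq2 fit is not given here, so nothing is read from the 8. The cause of the difference between the fits was not tested. No reason for leaving out ko replicate 3 is given here. It was the ko library nearest to wt on the first principal component and in Thbd, F13a1, F5 and Plau. Leaving it out therefore widened the difference of these genes by construction. Nothing is read from the 1283, or from the counts without ko replicate 3 that follow. The number of the 9 genes with a lower estimate in ko was 7, between 6 and 8 in the other settings listed here and 3 with scaling to the macrophage markers. The number whose groups did not overlap was 3 (25.9% of all genes tested), between 3 (without ko replicate 1, 29.6% of all genes) and 6 (without ko replicate 3, 49.7%) with 1 library left out, 5 without wt replicate 1 (31.5%), 7 without wt replicate 1 and ko replicate 3 in both edgeR (57.7%) and DESeq2 (45.4%), where fewer libraries are left to overlap, and 5 with scaling to the macrophage markers (39%). Over 17 alternatives Thbd stayed between -1.24 and -0.49, F13a1 between -0.96 and -0.20, F5 between -1.01 and -0.11 and Plau between 0.29 and 1.03 on the log2 scale. Serpinb2 changed sign in 9, from -0.50 to 0.49, F3 in 2, from -0.19 to 0.81, and F7, F10 and Plaur in 1 each. Log2 FPKM plus 0.1 moved the median of all genes to 0.16. Npm1 had an estimate above 0 in every alternative. The replicate numbers did not pair the libraries, with correlations of deviations of -0.241, 0.06 and -0.337 for numbers 1, 2 and 3, and 0 of the 6 libraries was closest to its own number. Fitting the replicate number as a block called 0 genes, with 1606 at an unadjusted p-value under 0.05 against 2112, while 6 of the 9 genes had a lower estimate, 3 did not overlap, and Npm1 was at 0.62. Depth was not limiting for the 9 genes, and precision was set by the spread among 3 libraries a group. Without wt replicate 1 the standard error of Thbd was 0.22 against 0.21, and without ko replicate 3 it was 0.17.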

Other observations

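For each of the 9 genes, up to 3 genes with the most similar profile over the 6 libraries were taken among genes with a mean of at least 10 CPM, by the root mean square difference of log2 CPM after each gene was centered on its own mean. The profiles come from the same libraries, so they share depth and scaling, and the likeness is a description. Thbd was nearest to Ctse, a protease (0.0766 log2 units), Nhsl2 (0.0891) and Siglec1, the macrophage sialoadhesin (0.114), against a median of 0.545 over 8091 genes. Ctse was at 19.8, 12.8 and 15.2 CPM in wt and at 7.43, 6.66 and 10.8 in ko. F13a1 was nearest to Slc16a7 (0.0463), Soat1, which esterifies cholesterol (0.0639), and the complement gene C1qa (0.0714), itself a macrophage marker. F10 was nearest to Tlr13 (0.0420), Slfn2 (0.0431) and Tlr6 (0.0644), and F5 to Tlr8 (0.0839), Itga1 (0.0927) and the iron exporter Slc40a1 (0.117).

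F3 was nearest to Uba6 (0.161) and to Lmbrd2 (0.167), both lowest in wt replicate 1, and Serpinb2 to Flrt3 (0.110), Slc7a11, the cystine transporter (0.127), and the chemokine Cxcl10 (0.153). Cxcl10 was at 267 CPM in wt replicate 1, at 826 and 509 in the other wt libraries and at 465, 416 and 533 in ko. F7 was nearest to Vps13d (0.0384), Med23 (0.0431) and Tec (0.0585), Plau to Cbll1 (0.0272), Hjurp (0.0492) and Sigirr (0.0516), and Plaur to Ldaf1 (0.0518), Rnf217 (0.0544) and Atox1 (0.0545). Within the group, the closest pair was Thbd and F13a1 (0.192) and the most distant was Thbd and Serpinb2 (0.899).

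Proz, the third gene of the F7 and F10 neighborhood, 4237 bp after F10, had 25, 33 and 57 counts in wt and 67, 110 and 23 in ko, a small share of the level of F7 and F10.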
